A study of Mus musculus with 18 samples.

Results

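The genes described here are 8 that mark mouse classical monocytes: Ly6c2, Fn1, Vcan, F13a1, Plac8, Emb, Cd14 and Thbs1. They were followed through the deposited array intensity values by taking, for each gene, the probe set that maps to its symbol alone, with the highest mean where there was more than 1, and its log2 value on each of 18 arrays. 7 of the 8 genes were measured in this way, out of 19752 genes on the arrays, and each of the 7 had 1 such probe set. Ly6c2 had 0: both of the 2 probe sets that list it also list Ly6c1, so no value is given for it. All 7 measured genes passed the filter on low values described below and were tested.

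The 18 one-colour arrays cover 4 populations of mouse cells from 2 genotypes. BRAF mice carried a floxed, Cre-activated BRAFV600E allele together with CD11c-Cre, a recombinase active in cells that express the integrin CD11c. WT mice were littermates that carried the same floxed allele without CD11c-Cre. The allele itself is shared by both groups, which differ in its activation and in the presence of Cre. Effects of these 2 cannot be told apart here. Bone marrow derived dendritic cells (BMDC) were grown from the femurs of mice aged 5 weeks and sorted as live CD11c+CD11b+ cells, with 3 BRAF and 3 WT arrays. The other 3 populations, CD103+ cells of the lung and CD11b+ cells of the lung and of the liver, were taken from untreated mice aged 14 weeks, with 2 BRAF and 2 WT arrays in each and no further gate stated. Replicates carry numbers in the labels, with no word on whether each was its own animal or culture. The p-values therefore cover the spread between the samples at hand, which may be technical. The number of arrays limits the precision.

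Classical monocytes leave the bone marrow for the blood, carry Ly6C on their surface in the mouse, and enter tissues, where they can take on features of macrophages or of dendritic cells. The lung holds both kinds of dendritic cell sampled here: CD103+ cells, which share their developmental programme with the type 1 dendritic cells that present antigen to CD8+ T cells, and CD11b+ cells, a gate that also admits cells derived from monocytes. Among the genes, Fn1 encodes fibronectin and Vcan versican, both large components of the extracellular matrix. Thbs1 encodes thrombospondin 1, a matrix glycoprotein that binds CD36 and CD47. F13a1 encodes the A subunit of coagulation factor XIII, a transglutaminase that cross-links fibrin. Cd14 encodes the receptor that hands bacterial lipopolysaccharide to TLR4, and Emb encodes embigin, a membrane protein that accompanies lactate transporters. Plac8 encodes a small cysteine-rich protein, and Ly6c2 a lipid-anchored surface protein.

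RefSeq's promoter table held 5 of the 8 genes. The 250 bases before the first listed start are printed for F13a1 and Emb, which were both far lower in WT lung CD103+ than in WT lung CD11b+ cells, for Plac8, whose difference there missed the threshold, and for Vcan. Vcan showed little difference there, with values near the level of the filter on low values in both populations. Capitals mark matches, on either strand, to 3 motifs: the AP-1 site TGANTCA, the PU-box GAGGAA, which is bound by the myeloid factor PU.1, and the GC box GGGCGG. A match on the other strand is printed as TTCCTC or CCGCCC.
F13a1: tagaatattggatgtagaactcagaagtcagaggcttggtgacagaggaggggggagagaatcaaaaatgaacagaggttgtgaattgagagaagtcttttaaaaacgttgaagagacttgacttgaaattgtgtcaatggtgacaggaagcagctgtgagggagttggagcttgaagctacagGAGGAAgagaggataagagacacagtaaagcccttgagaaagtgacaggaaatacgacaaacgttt
Plac8: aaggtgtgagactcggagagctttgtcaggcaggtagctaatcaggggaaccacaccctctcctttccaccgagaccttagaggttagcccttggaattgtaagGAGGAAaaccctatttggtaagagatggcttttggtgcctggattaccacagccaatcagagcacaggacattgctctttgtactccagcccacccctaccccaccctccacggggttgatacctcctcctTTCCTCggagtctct
Emb: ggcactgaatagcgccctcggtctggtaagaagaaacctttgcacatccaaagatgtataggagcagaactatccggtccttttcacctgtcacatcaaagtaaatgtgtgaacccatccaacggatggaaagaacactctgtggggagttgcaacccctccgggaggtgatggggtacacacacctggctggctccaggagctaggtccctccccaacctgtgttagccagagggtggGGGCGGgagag
Vcan: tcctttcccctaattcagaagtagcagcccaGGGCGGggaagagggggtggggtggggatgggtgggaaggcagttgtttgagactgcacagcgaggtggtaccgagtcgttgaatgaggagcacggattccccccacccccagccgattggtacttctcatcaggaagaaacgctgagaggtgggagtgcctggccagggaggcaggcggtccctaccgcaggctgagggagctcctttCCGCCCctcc

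The F13a1 window is chr13:37050245-37050494 on the minus strand, and it holds 1 PU-box, which begins 66 bases before the start. The Plac8 window is chr5:100572206-100572455 on the minus strand, with a PU-box 146 bases and a reversed one 15 bases before the start. The Emb window is chr13:117220323-117220572 on the plus strand, with 1 GC box 11 bases before the start, and the Vcan window is chr13:89742513-89742762 on the minus strand, with GC boxes 219 bases and, reversed, 10 bases before it. Among 32851 promoter windows of the same length, 23.3% hold the PU-box, 32.7% the GC box and 6.75% the AP-1 site, which none of these 4 windows contains. Such matches describe the letters and do not show that a factor binds.

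The genes of the sort gates followed the labels. Itgae, which encodes CD103, averaged 11.22 ± 0.88 on the log2 intensity scale in BRAF and 11.80 ± 0.54 in WT lung CD103+ cells, against 6.0 ± 0.37 in BRAF and 6.73 ± 0.23 in WT lung CD11b+ cells (SD, n = 2 each). Itgam, which encodes CD11b, averaged 8.30 ± 0.13 in BRAF and 6.89 ± 0.02 in WT lung CD103+ cells, against 11.05 ± 0.53 and 10.69 ± 0.05 in BRAF and WT lung CD11b+ cells. Itgax, which encodes CD11c, lay between 11.30 and 12.04 in all 8 group means. Both arrays of a group were not always alike. The narrowest spread of log2 values, as the interquartile range, was on BRAF BMDC replicate 2 (1.90), followed by WT liver replicate 3 (1.92), and the other 16 arrays were wider. On a single array, BRAF lung CD103+ replicate 1 had a log2 value of 10.98 for the hepatocyte gene Alb, where the other 3 lung CD103+ arrays lay between 5.94 and 7.80. The WT lung CD103+ arrays also differed. Their 5 measured T cell markers averaged 5.90 on the lower and 7.79 on the higher array, against 5.84 and 6.62 in BRAF. For 5 B cell markers the averages were 5.59 and 7.52 in WT and 6.08 and 6.88 in BRAF.

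Fn1 was bright in 7 of the 8 groups and low in the other 1. Its group means on the log2 scale ran, from the highest, 12.59 ± 0.64 in BRAF BMDC, 12.30 ± 0.56 in BRAF lung CD11b+, 11.90 ± 0.34 in BRAF lung CD103+, 11.88 ± 0.35 in WT BMDC, 11.84 ± 0.45 in BRAF liver, 11.42 ± 0.09 in WT lung CD11b+, 10.63 ± 1.13 in WT liver and 7.95 ± 2.09 in WT lung CD103+ cells (SD, n = 3 for BMDC and 2 otherwise). The arrays of neighbouring groups in this order overlapped, apart from BRAF liver above WT lung CD11b+ and WT liver above WT lung CD103+ cells. The last gap, 2.68, was the widest.

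The other genes each had their own order over the populations. Thbs1 stood highest in BMDC, at 11.87 ± 0.61 in BRAF and 11.98 ± 0.31 in WT cultures, 2.90 above the next group mean and with no overlap, and lowest in lung CD103+ cells, at 6.29 ± 0.19 in BRAF and 6.52 ± 0.06 in WT. Plac8 ran the other way: it averaged 5.87 ± 0.52 in BRAF and 5.44 ± 0.33 in WT BMDC, where 1 of 3 BRAF and 2 of 3 WT arrays put it under their 30th percentile, and 10.80 ± 0.44 in BRAF and 11.25 ± 0.0027 in WT liver CD11b+ cells. Emb was above 10 on average in all groups but lung CD103+ cells. Vcan had its lowest means in lung CD103+ cells, at 5.55 ± 0.71 in BRAF and 5.58 ± 0.31 in WT. Lung CD11b+ cells averaged 6.48 ± 0.82 in BRAF and 5.83 ± 0.03 in WT, and WT liver 6.32 ± 0.24. F13a1 had its highest mean in BRAF liver, at 10.47 ± 2.14, which rested on replicate 3, and the arrays there overlapped those of WT lung CD11b+ cells. Cd14 had its highest means in lung CD11b+ cells, at 10.57 ± 0.33 in BRAF and 10.78 ± 0.35 in WT. These levels rank groups within a gene, since intensities of different probe sets are not comparable. In RefSeq's annotation of GRCm38.p6 the measured genes lie at chromosome 1, 71585473 to 71653280 (Fn1), chromosome 2, 118111876 to 118127133 (Thbs1), chromosome 5, 100551589 to 100572253 (Plac8), chromosome 13, 36867178 to 37050244 (F13a1), 89655309 to 89743027 (Vcan) and 117220573 to 117274415 (Emb), and chromosome 18, 36725064 to 36726815 (Cd14).

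**Figure D1:**
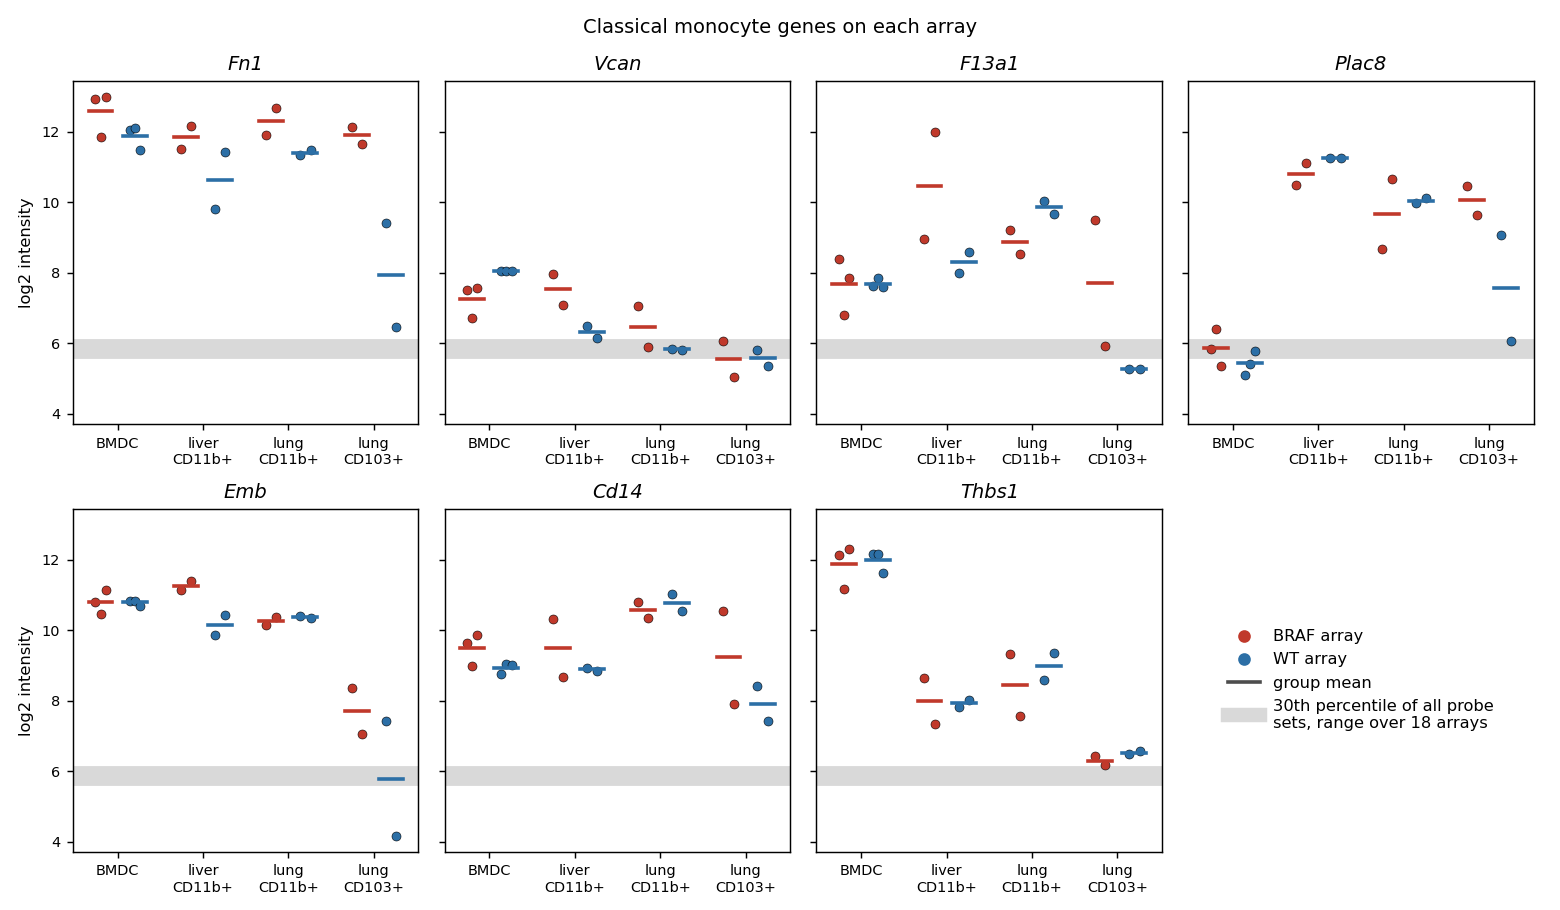
Log2 intensity of the 7 measured genes (vertical axis) in the 4 populations (horizontal axis), with 1 point per array, BRAF in red left of WT in blue, a bar at each group mean and a gray band over the range of the 18 arrays' 30th percentiles. The 2 WT lung CD103+ arrays, at 9.43 and 6.47, are the lowest of all Fn1 points, and both WT F13a1 values in that population, at 5.28, lie under the band.

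The first comparison sets BRAF against WT cells for these genes in each population. In lung CD103+ cells Fn1 read 12.15 and 11.66 on the 2 BRAF arrays, against 9.43 and 6.47 on the 2 WT arrays. Both BRAF arrays were near the level of lung CD11b+ cells, and the WT arrays were below every other Fn1 value in the data set. The log2 difference was 3.95 ± 0.72 (SE), or 15.5-fold, and limma's Benjamini-Hochberg adjusted p of 0.0573 missed the threshold of 0.05. It passed after quantile normalization (4.0, adjusted p = 0.0376) and with a trended and robust variance (adjusted p = 0.0476). Leaving out the higher WT array, replicate 1, gave 5.43 (adjusted p = 6.58e-04), and leaving out replicate 3 gave 2.48, which did not pass (adjusted p = 0.374). With either BRAF array left out it did not pass either (adjusted p = 0.671 and 0.0576).

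Plac8, F13a1 and Emb also stood higher on average in BRAF lung CD103+ cells, without passing the test. Plac8 read 10.46 and 9.65 on the BRAF arrays, against 9.07 and 6.06 on the WT arrays, a log2 difference of 2.49 ± 0.74 (adjusted p = 0.382 by limma). F13a1 read 9.49 and 5.92 in BRAF and 5.28 and 5.28 in WT cells, a difference of 2.43 ± 0.94 (adjusted p = 0.859). The groups of these 2 genes did not overlap, but the high F13a1 value came from BRAF replicate 1 alone, and without it the difference was 0.64, while without BRAF replicate 2 it was 4.21 and passed (adjusted p = 0.0484). Emb read 8.35 and 7.07 in BRAF and 7.41 and 4.16 in WT cells, so that the groups overlapped, with a difference of 1.93 ± 0.68 (adjusted p = 0.650). Without WT replicate 3 the differences were 0.98 for Plac8 and 0.30 for Emb. Without WT replicate 1 they were 4.0 and 3.55, and both passed (limma's adjusted p = 0.00715 and 0.000853).

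The remaining genes were more nearly level in that population. Cd14 read 10.54 and 7.91 in BRAF and 8.41 and 7.42 in WT lung CD103+ cells, a log2 difference of 1.31 ± 0.66 that came to -0.0092 without BRAF replicate 1. Thbs1 read 6.42 and 6.16 in BRAF, just below 6.47 and 6.56 in WT cells, with a difference of -0.22 ± 0.52. Vcan differed by -0.03 ± 0.42, with a 95% interval of -0.92 to 0.86. It read 5.05 on BRAF replicate 2 and 5.36 on WT replicate 3, each under its array's 30th percentile. In all, 0 of the 7 genes passed in lung CD103+ cells, where 0.0846% of the 15365 tested genes did. Every BRAF array lay above every WT array for 3 of the 7 (Fn1, F13a1, Plac8) and below for 1 (Thbs1), against 9.16% and 19.3% of all tested genes. The median difference of the 7 genes was 1.93, and that of all tested genes was -0.09. In these bulk samples fewer cells of a type and less RNA per cell cannot be told apart.

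In liver CD11b+ cells the 4 genes Fn1, Vcan, F13a1 and Emb read higher on both BRAF arrays than on either WT array. Vcan had the smallest adjusted p there: it read 7.98 and 7.09 in BRAF and 6.15 and 6.495 in WT cells, a log2 difference of 1.21 ± 0.42 (adjusted p = 0.250 by limma). F13a1 read 8.96 and 11.99 in BRAF and 8.61 and 8.01 in WT cells, a difference of 2.16 ± 0.94 carried mainly by BRAF replicate 3. Fn1 read 11.53 and 12.16 in BRAF and 11.43 and 9.83 in WT cells, a difference of 1.22 ± 0.72. Of the WT arrays, replicate 3, the one with the narrow range, held the low Fn1 value, and without it and the other narrow array the Fn1 difference was 0.42. Emb differed by 1.11 ± 0.68 and Cd14 by 0.60 ± 0.66. Plac8 was lower on both BRAF arrays, with a difference of -0.45 ± 0.74, and Thbs1 was level at 0.08 ± 0.52. The test passed for 0 of the 7 genes, against 0.215% of all tested genes. Arrays did not overlap upwards for 4 of 7, with 22.7% as the share over all genes, and downwards for 1, with 15.8%.

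In lung CD11b+ cells Fn1 was again higher on both BRAF arrays, and F13a1 was lower on both. Fn1 read 11.90 and 12.69 in BRAF and 11.48 and 11.35 in WT cells, a log2 difference of 0.88 ± 0.72 with both BRAF arrays higher. F13a1 went the other way, at 9.21 and 8.53 in BRAF and 9.67 and 10.05 in WT cells, a difference of -0.99 ± 0.94. Vcan read 7.06 and 5.90 in BRAF and 5.81 and 5.86 in WT cells, so that 1 BRAF array was at the WT level. Thbs1 differed by -0.54 ± 0.52, Plac8 by -0.38 ± 0.74, Cd14 by -0.20 ± 0.66 and Emb by -0.11 ± 0.68, each with overlapping arrays. None of the 7 passed limma's test, for which 0.338% of all tested genes passed, and adjusted p-values were 0.970 or above. Non-overlap upwards covered 2 of the 7 genes and downwards 1, beside 21.6% and 24.8% of all genes.

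In BMDC Vcan had the 1 full separation of the arrays among the 7 genes, and its difference did not pass. It read 7.53, 6.72 and 7.58 on the BRAF arrays, all below the 8.05, 8.05 and 8.06 of the WT arrays, a log2 difference of -0.78 ± 0.34 (adjusted p = 0.714 by limma). Fn1 read 12.93, 11.85 and 13.001 in BRAF and 12.06, 12.10 and 11.48 in WT cultures, a difference of 0.71 ± 0.59. The low BRAF value of both genes belonged to replicate 2, the array with the narrow range. Without the 2 narrow arrays the difference was -0.50 for Vcan and 1.08 for Fn1, and with array weights, which count variable arrays for less, Vcan passed at -0.52 (adjusted p = 0.0399). The share of all genes that passed with array weights is not given here. Over the settings other than single leave-outs, 14 to 1658 genes passed in BMDC, against 80 in the fit used throughout. Cd14 differed by 0.56 ± 0.54, Plac8 by 0.44 ± 0.61, Thbs1 by -0.11 ± 0.43, Emb by 0.02 ± 0.56 and F13a1 by -0.02 ± 0.77. As in the organs, 0 of the 7 genes passed the test, which 0.521% of all genes did. The separation was upwards for 0 and downwards for 1 of the 7 genes, with 6.99% and 9.08% as the shares over all genes.

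**Figure D2:**
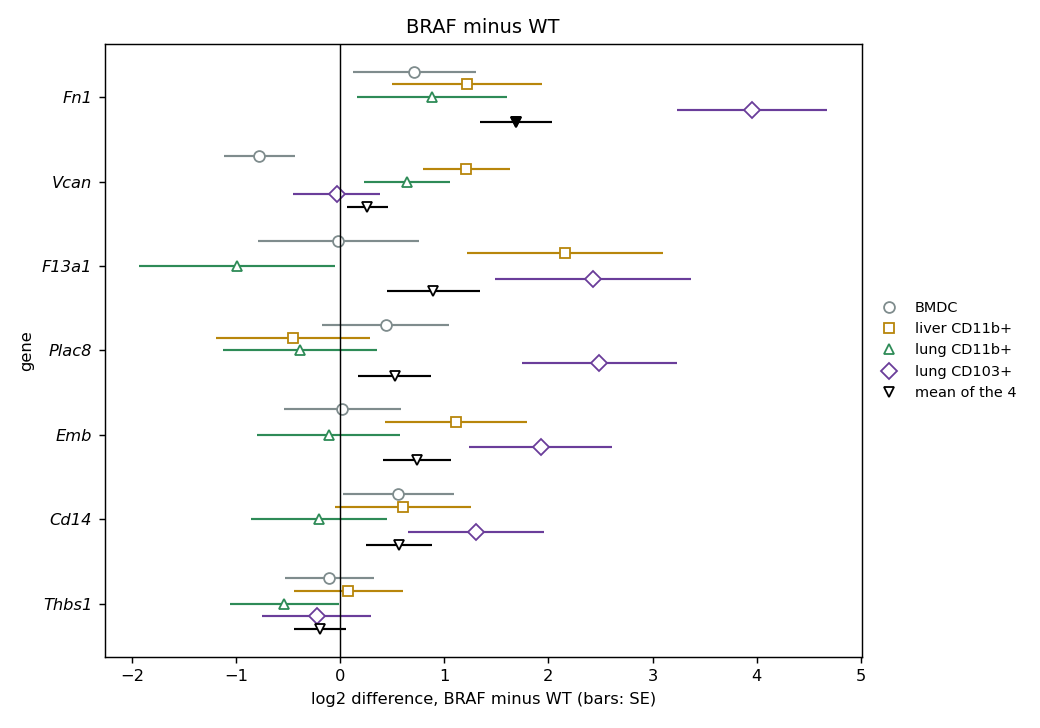
Log2 difference BRAF minus WT (horizontal axis) of the 7 genes (vertical axis) in each population and as the mean of the 4, with bars of 1 standard error and filled symbols where limma's adjusted p is under 0.05. The single filled symbol is the mean effect of Fn1 at 1.69, and the Fn1 point of lung CD103+ cells lies farthest to the right at 3.95.

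Averaged over the 4 populations, Fn1 was the 1 gene of the 7 whose BRAF minus WT difference passed the test. Its mean log2 difference was 1.69 ± 0.35, or 3.23-fold, with a 95% interval of 0.95 to 2.43 and limma's adjusted p of 0.0290, a threshold that 0.989% of all tested genes passed. Fn1 was higher on average in BRAF than in WT cells in 4 of 4 populations, a sign pattern shared by 4.99% of all tested genes. The 4 differences were unequal: 3.95 in lung CD103+ cells, against 1.22 in liver, 0.88 in lung CD11b+ cells and 0.71 in BMDC. None of them passed alone. Emb averaged 0.74 ± 0.33, F13a1 0.90 ± 0.45, Cd14 0.57 ± 0.31, Plac8 0.52 ± 0.36, Vcan 0.26 ± 0.20 and Thbs1 -0.20 ± 0.25, and none of these 6 passed. The Fn1 estimate stayed between 1.32 and 2.06 when any 1 array was left out, but for 11 of the 18 arrays its adjusted p was then above 0.05, at up to 0.0879. These were WT BMDC replicates 1, 2 and 3, WT liver replicate 3, WT lung CD11b+ replicates 1 and 3, BRAF BMDC replicates 1 and 3, BRAF liver replicate 3, BRAF lung CD11b+ replicate 2 and BRAF lung CD103+ replicate 1. Centring on array medians also ended the call (adjusted p = 0.0512).

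Whether the Fn1 difference was larger in lung CD103+ cells than elsewhere was tested directly. Set against the genotype difference in BMDC, that in lung CD103+ cells was 3.24 ± 0.93 larger, against liver 2.74 ± 1.02 and against lung CD11b+ cells 3.07 ± 1.02, and none passed (limma's adjusted p = 0.432, 0.460 and 1.00). Over all tested genes 0.0521%, 0% and 0% passed these 3 contrasts. Without WT lung CD103+ replicate 1, the array with the higher Fn1 value, the 3 differences were 4.72, 4.22 and 4.55, and each passed (adjusted p = 0.0110, 0.0454 and 0.0376). Without WT lung CD103+ replicate 3 they were 1.77, 1.26 and 1.60, and none passed (adjusted p = 0.999, 0.714 and 1.00). Against lung CD11b+ cells the difference was 3.41 ± 1.33 for F13a1, 2.87 ± 1.05 for Plac8 and 2.04 ± 0.97 for Emb, with adjusted p of 1.00 for each. The moderated F test over the 4 populations gave 5.17 for Vcan (adjusted p = 0.402) and 4.73 for Fn1 (adjusted p = 0.431), the 2 highest of the 7, and passed for none, against 0.124% of all genes.

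The second comparison sets lung CD103+ against lung CD11b+ cells within each genotype. In WT mice all 7 genes were lower on average in CD103+ cells, and 5 of the 7 passed. Over all tested genes 3.75% passed and 2.37% passed as lower. Emb read 7.41 and 4.16 in CD103+ cells, the second under the 30th percentile of its array, against 10.33 and 10.41 in CD11b+ cells, a log2 difference of -4.59 ± 0.68 (limma's adjusted p = 0.00105). F13a1 read 5.28 and 5.28 in CD103+ cells, under the 30th percentile of both arrays, against 9.67 and 10.05 in CD11b+ cells, a difference of -4.58 ± 0.94 (adjusted p = 0.0105). Fn1 read 9.43 and 6.47 in CD103+ cells and 11.48 and 11.35 in CD11b+ cells, a difference of -3.47 ± 0.72 (adjusted p = 0.0115). The arrays of the 2 populations were fully apart for each of these genes. They had already passed the test, and how many of all tested genes separated in that way was not counted.

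Thbs1 and Cd14 completed the 5. Thbs1 read 6.47 and 6.56 in WT CD103+ cells, against 9.36 and 8.58 in WT CD11b+ cells, a log2 difference of -2.46 ± 0.52 (adjusted p = 0.0133 by limma). Cd14 read 8.41 and 7.42 in CD103+ cells and 10.53 and 11.02 in CD11b+ cells, a difference of -2.86 ± 0.66 (adjusted p = 0.0207). Plac8 differed by -2.48 ± 0.74 (adjusted p = 0.0928) and Vcan by -0.25 ± 0.42. The Vcan value of CD103+ replicate 3, 5.36, lay under its array's 30th percentile. Plac8 passed with array weights (adjusted p = 0.0226) and without CD103+ replicate 1 (-3.99, adjusted p = 0.00219). Emb alone passed whichever 1 of the 4 WT lung arrays was left out. The count was 4 without CD103+ replicate 1, 2 without CD11b+ replicate 3, and 1 without either CD103+ replicate 3 or CD11b+ replicate 1, and without CD103+ replicate 3 the Fn1 difference was -1.99. In a fit of the 2 WT groups alone F13a1, Cd14 and Thbs1 passed, and Emb (adjusted p = 0.0765) and Fn1 (adjusted p = 0.123) did not. Over the settings other than single leave-outs, 549 to 1280 genes passed between these populations, against 576 in the fit used throughout.

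In BRAF mice 0 of the 7 genes passed between the same lung populations, where 1.21% of all genes did. Fn1 read 12.15 and 11.66 in CD103+ cells, against 11.90 and 12.69 in CD11b+ cells, a log2 difference of -0.39 ± 0.72 with overlapping arrays. Plac8 differed by 0.39 ± 0.74, F13a1 by -1.16 ± 0.94, Cd14 by -1.35 ± 0.66 and Vcan by -0.92 ± 0.42. Emb, at 8.35 and 7.07 in CD103+ and 10.14 and 10.38 in CD11b+ cells, and Thbs1, at 6.42 and 6.16 in CD103+ and 9.31 and 7.56 in CD11b+ cells, had the widest gaps, of -2.55 ± 0.68 (limma's adjusted p = 0.113) and -2.14 ± 0.52 (adjusted p = 0.0721). With the lung replicate numbers as a random block, Thbs1 passed (adjusted p = 0.0394). A gene that passed in WT and not in BRAF mice is not shown to differ between them: the tests of that difference are the contrasts of the lung CD103+ with the lung CD11b+ genotype difference given above, and none passed.

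**Figure D3:**
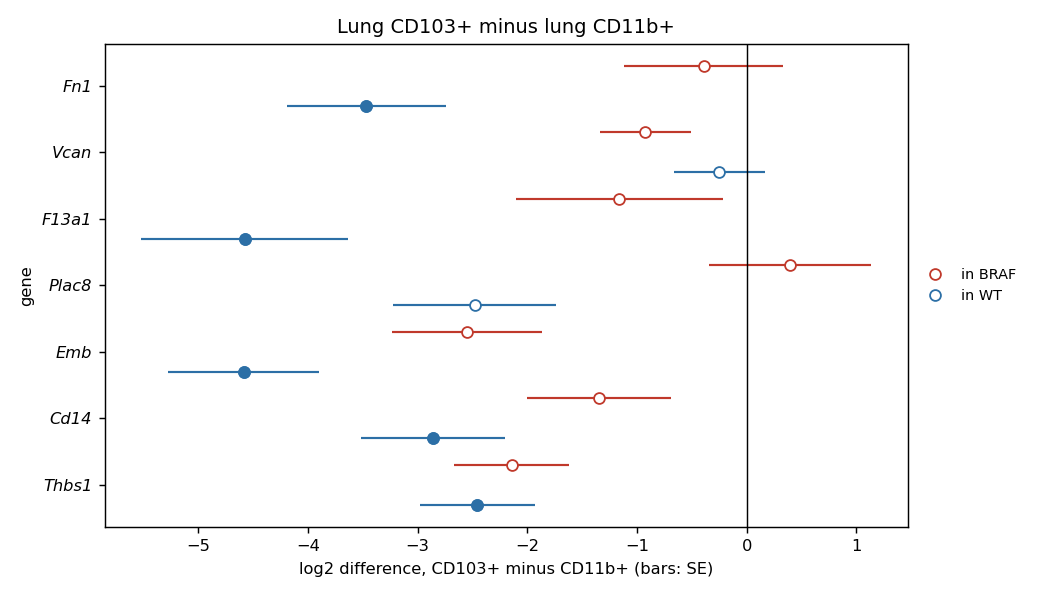
Log2 difference of lung CD103+ minus lung CD11b+ cells (horizontal axis) of the 7 genes (vertical axis) within BRAF and within WT mice, with bars of 1 standard error and filled symbols where limma's adjusted p is under 0.05. The 5 filled symbols, Emb, F13a1, Fn1, Cd14 and Thbs1, are all WT, between -4.59 and -2.46.

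Between liver CD11b+ and lung CD11b+ cells the test passed for 0 of the 7 genes in BRAF mice, against 0.176% of all tested genes, and for 0 in WT mice, against 2.08%. Vcan differed by 1.06 ± 0.42 in BRAF mice (limma's adjusted p = 0.636) and by 0.49 ± 0.42 in WT mice. Cd14 had the smallest adjusted p in WT mice, with a log2 difference of -1.88 ± 0.66 (adjusted p = 0.122), and differed by -1.07 ± 0.66 in BRAF mice. Fn1 differed by -0.45 ± 0.72 in BRAF and -0.79 ± 0.72 in WT mice. F13a1 differed by 1.60 ± 0.94 in BRAF and -1.55 ± 0.94 in WT mice, and Plac8 by 1.13 ± 0.74 in BRAF and 1.205 ± 0.74 in WT mice. A fit of the 2 WT groups alone called 3 of the 7, which were Cd14 (adjusted p = 0.0122), F13a1 (0.0360) and Plac8 (0.0494). The share of all tested genes called in that fit is not given here, so this count has no background to be judged by. The 2.08% belongs to the fit of all 18 arrays.

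Markers of macrophages moved with these genes across the lung CD103+ arrays. The mean log2 value of the 7 genes was 9.07 and 7.63 on BRAF replicates 1 and 2, against 7.41 and 5.90 on WT replicates 1 and 3. The 12 measured macrophage markers stood at 10.70 and 9.07 on the same BRAF arrays and at 8.34 and 6.85 on the WT arrays. Their summed intensity was 10032 to 25509 in BRAF and 4130.0 to 6874 in WT lung CD103+ cells, and 12 of 12 exceeded the 30th percentile of both BRAF arrays, against 8 to 11 of 12 on the WT arrays. All 12 had a positive log2 difference, with a median of 2.42. Fcgr4, an activating receptor for IgG, rose by 3.71 ± 0.64 (limma's adjusted p = 0.0436), and Msr1, a scavenger receptor, stood at 2.77 ± 0.52 (adjusted p = 0.0612). Without BRAF replicate 1 all 12 remained positive, with a median of 1.49, and 0 passed (Fcgr4 3.47, adjusted p = 0.671). Without WT replicate 3 the median was 1.62 and 0 passed, whereas 6 passed without WT replicate 1 and 7 without BRAF replicate 2. In WT mice all 12 were lower on average in CD103+ than in CD11b+ cells, with a median of -3.54, and 10 passed. The smallest adjusted p was that of Adgre1, which encodes F4/80, at -3.47 ± 0.41 (adjusted p = 0.000159).

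Markers of type 1 dendritic cells, hepatocytes and alveolar macrophages did not order the 4 CD103+ arrays in that way. The mean of 8 type 1 dendritic cell markers was 11.25 and 11.59 on the BRAF arrays and 11.47 and 11.72 on the WT arrays. That of 7 hepatocyte markers was 7.97 and 6.05 in BRAF and 6.20 and 5.90 in WT cells, with BRAF replicate 1 high, and that of 10 alveolar macrophage markers was 8.55 and 8.03 in BRAF and 8.23 and 6.30 in WT cells. The 7 Kupffer cell markers, at 7.82 and 6.97 in BRAF and 6.89 and 5.83 in WT cells, kept the order of the macrophage list. The 6 lung epithelium markers averaged 8.28 to 9.14 on the BRAF and 7.71 to 8.79 on the WT arrays. Of these 6, 4 had a positive log2 difference and 0 passed. The fibroblast markers, whose cells also make fibronectin, summed to 463 to 564 in BRAF and 482 to 533 in WT lung CD103+ cells, and the megakaryocyte and platelet markers, whose cells carry thrombospondin and factor XIII, to 506 to 886 and 499 to 510. The part that cells of these types played in the differences above was not tested.

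**Figure D4:**
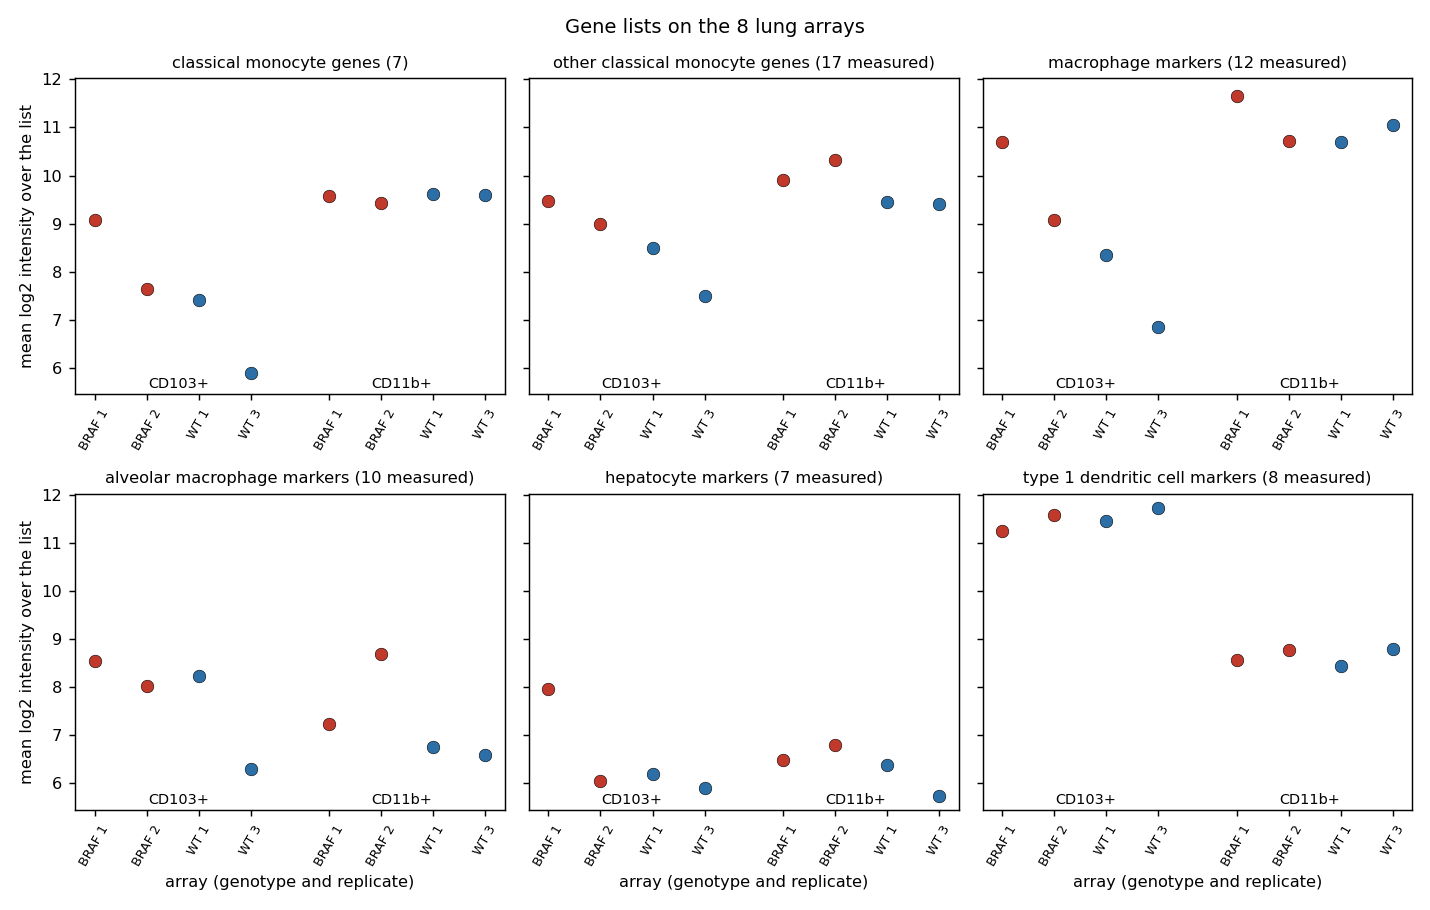
Mean log2 intensity over each of 6 gene lists (vertical axis) on the 8 lung arrays (horizontal axis), BRAF in red and WT in blue, with CD103+ arrays left of CD11b+ arrays. The 7 classical monocyte genes and the macrophage markers fall in the same order over the 4 CD103+ arrays, while the type 1 dendritic cell markers stay between 11.25 and 11.72 there.

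Of 19 other classical monocyte genes, 17 were measured and tested. In lung CD103+ cells 15 of the 17 had a positive log2 difference, with a median of 0.79, and 0 passed. The smallest p-values belonged to Fcgr1, the high-affinity IgG receptor, at 1.52 ± 0.37, Ifitm6 at 2.32 ± 0.54, Gda, which encodes guanine deaminase, at 1.80 ± 0.51, and the C1q-receptor-like Cd93 at 2.72 ± 0.77. Averaged over the 4 populations, 15 of the 17 had a positive log2 difference and 3 passed. These were Mmp8, a neutrophil collagenase, at 2.27 ± 0.36 (limma's adjusted p = 0.00789), Ifitm6 at 1.53 ± 0.26 (adjusted p = 0.0108) and Gda at 1.39 ± 0.24 (adjusted p = 0.0140). Ifitm6 was also the 1 that passed in BMDC, where it read 9.44, 8.18 and 9.58 in BRAF, far above 6.40, 6.33 and 6.35 in WT cultures (2.71 ± 0.44, adjusted p = 0.0102). Without BRAF BMDC replicate 2, the narrow array, the Ifitm6 difference was 3.15 (adjusted p = 0.00394), and without BRAF replicate 1 or any 1 WT array it did not pass (adjusted p of 0.0511 to 0.0630). In liver and lung CD11b+ cells 0 passed.

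Between the WT lung populations 7 of these 17 genes passed as lower in CD103+ than in CD11b+ cells, and 3 of the 17 had a positive difference. The smallest p-values were those of Ms4a4c at -3.85 ± 0.47, Ifitm6 at -4.15 ± 0.54 and the calcium-binding S100a4 at -2.35 ± 0.31. In BRAF mice 3 of the 17 passed as lower, S100a4 at -2.48 ± 0.31, Ifitm6 at -2.60 ± 0.54 and Ms4a4c at -2.34 ± 0.47. S100a4 passed without each of the 4 BRAF lung arrays, whereas Ifitm6 passed in none of these 4 fits and Ms4a4c only in that without CD103+ replicate 2. The list's median was -1.0 in BRAF and -1.35 in WT mice, and that of the 7 genes -1.16 in BRAF and -2.86 in WT mice.

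Few genes of the pathways around the 7 proteins passed the test for genotype. Few of all tested genes did either: the share ran from 0.0846% (lung CD103+) to 0.521% (BMDC). With so small a share, a count of 0 in a short list cannot show that a pathway was unchanged. Of 9 tested genes of the lipopolysaccharide pathway that Cd14 feeds, 0 passed in any population, and Tlr4 itself differed by 0.56 ± 0.45 in lung CD103+ and 1.19 ± 0.45 in lung CD11b+ cells. None of 11 receptors for fibronectin, versican and thrombospondin, among them the integrin subunits Itga4 and Itgb7 and the scavenger receptor Cd36, passed either. Among 9 coagulation and transglutaminase genes, F5, which encodes coagulation factor V, rose in BMDC by 1.98 ± 0.33 (limma's adjusted p = 0.0107) and none passed elsewhere. Of the leave-outs, F5 passed only without BRAF BMDC replicate 2, at 2.50 (adjusted p = 2.15e-05). The same count of 0 held for 5 relatives and transporter partners of embigin, 4 relatives of thrombospondin, 5 genes that cleave versican or build the hyaluronan matrix, such as the protease Adamts4, and 7 Ly6 family genes. Between WT lung populations Thbd, the thrombin receptor thrombomodulin, was lower in CD103+ cells at -2.34 ± 0.38, as were the transglutaminase Tgm2 at -2.71 ± 0.56, the lactate transporter Slc16a7 at -2.28 ± 0.42, the TLR4 adaptor Ticam2 at -1.49 ± 0.25 and Ly6i at -3.68 ± 0.63. In a fit of the 2 WT groups alone Tgm2 and Slc16a7 did not pass (limma's adjusted p = 0.0706 and 0.0626). Without WT CD103+ replicate 3 the difference was -1.82 for Tgm2, -1.56 for Slc16a7 and -2.87 for Ly6i.

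As a description of the 18 arrays, the genes whose log2 values followed Fn1 most closely were Abcd2 with a Pearson r of 0.93, Pilra with 0.91, Cybb with 0.90, Lamp1 with 0.90 and Ctsd with 0.89, out of 15364 genes. Abcd2 encodes a peroxisomal transporter, Pilra an inhibitory myeloid receptor, Cybb a subunit of the phagocyte oxidase, and Lamp1 and Ctsd lysosomal proteins. Within the 7 genes Fn1 was closest to Emb (r = 0.79) and least like Plac8 (r = -0.02), while Vcan was closest to Thbs1 (r = 0.79) and Plac8 ran opposite to Thbs1 (r = -0.75). The arrays share populations and genotypes and are not independent points.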

How the data were processed

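RNA from 18 samples of mouse myeloid cells was measured on 1-colour gene arrays. The deposited values are linear intensity (medians of 93.7 to 113.2 per array). The authors' steps before deposit are not given in the sources used here. From the deposited intensity, log2 was taken here with no constant added and no further normalization. Of 24922 probe sets, 21425 carry 1 gene symbol in the platform table, 1399 several and 2098 are unnamed here. The Entrez number of 21347 matched RefSeq's gene table (GRCm38.p6) and 0 symbols changed. Each of 19752 genes took its highest-mean probe set. Tested were the 15365 that exceeded the 30th percentile of the array on 2 or more arrays.

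limma 3.58.1 in R 4.3.3 fitted 1 mean per group to the 18 arrays together, leaving 10 residual degrees of freedom beside a prior of 4.8. P-values were adjusted by Benjamini-Hochberg over all genes tested, and those under 0.05 were called. Errors after a difference are SE, and after a group mean SD. Fits were tested on simulated data. The 8 genes and the 25 other gene lists were chosen with earlier results of these data known. Named from each list were genes that passed in a comparison, up to 4 with the smallest p in lung CD103+ cells and up to 2 in each other population, of which the text gives a selection.

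Lung arrays of the same genotype and number deviated together from their group means (r = 0.22 in BRAF and 0.159 in WT, across genes). With 2 arrays per group the deviations mirror each other, and swapping the numbers would only turn the sign of r. These values therefore cannot show that the numbers are pairs. As an alternative the numbers were taken as pairs and fitted as a random block. The other alternatives were quantile normalization, median centring, other filters, probe sets averaged per gene, trended and robust variances, array weights, 16 added before log2, fits of only the groups compared, leaving out the 2 arrays of narrowest spread, and leaving out each array in turn. A group left with 1 array is then assumed to vary like the others. Python 3.11.15 and matplotlib 3.10.9 made the figures.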

Additional observations from a re-analysis of the deposited data

Results flagged for a closer look

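In 5 places, every array of 1 population moved one way with genotype and every array of another moved the opposite way, when each BRAF array is set against the WT arrays of its population. These differences were singled out by their direction alone. BRAF arrays lay below all WT arrays for 9.08% of all tested genes (BMDC), 15.8% (liver CD11b+) and 24.8% (lung CD11b+). They lay above all WT arrays for 9.16% (lung CD103+), 21.6% (lung CD11b+) and 22.7% (liver CD11b+). The share of all tested genes with such opposite pairs was not counted, so the 5 places have no background to be judged by. Vcan, higher in BRAF liver and BRAF lung CD11b+ cells and lower in BRAF BMDC, had a genotype difference 1.99 larger in liver than in BMDC and 1.42 larger in lung CD11b+ cells than in BMDC on the log2 scale, neither of which was tested. The F13a1 difference was -3.15 when that in liver is subtracted from that in lung CD11b+ cells, which was not tested, and 3.41 when that in lung CD11b+ is subtracted from that in lung CD103+ cells, which had limma's adjusted p of 1.00. The Plac8 difference in lung CD103+ cells exceeded that in liver by 2.94 (limma's adjusted p = 0.459).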

How the results depend on the processing

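Of 1176 single-gene values under alternative settings, 1097 kept their direction and their side of the threshold, 27 lost it, 19 gained it, and 33 changed sign, 0 of them a called value. The count of the 7 genes called changed in 33 of 238 cases, in 31 by over 1.5 times. In lung CD103+ cells it was 1 (Fn1) under quantile normalization and under trended, robust variances instead of 0, and 0 to 3 with arrays left out. For the mean effect it was 0 under median centring instead of 1, and 0 to 2 with arrays left out. In BMDC it was 1 (Vcan) with array weights instead of 0. Between lung populations it was 1 in BRAF mice with 16 added (Emb) and with the replicate block (Thbs1) instead of 0, and 0 to 1 with arrays left out; in WT mice it was 3 instead of 5 with only the groups compared, 6 with array weights (Plac8 gained), and 1 to 4 with arrays left out. Between organs in WT mice it was 3 instead of 0 with only the groups compared. Each contrast of the lung CD103+ genotype difference with another population, and the F test, gave 0 to 2 with arrays left out. The replicate block changed no other call of the 7 genes. In BMDC, same-numbered arrays correlated at 0.469, -0.231 and -0.399, so the numbers were not taken as pairs, and with them as a fixed block 14 genes in all were called in place of 80.

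The signs that turned were all of differences that had not passed. In BMDC, Thbs1 came to 0.15 under quantile normalization, 0.064 with array weights and 0.24 without the narrow arrays, F13a1 to 0.50 with array weights and 0.42 without the narrow arrays, and Emb to -0.062 after centring; with arrays left out they ranged from -0.32 to 0.24, -0.37 to 0.42 and -0.15 to 0.19. In liver, Thbs1 came to -0.16 under quantile normalization and -0.032 without the narrow arrays, and ranged from -0.58 to 0.73 with arrays left out, and Cd14 from -0.22 to 1.43. In lung CD11b+ cells, leaving out arrays gave ranges of -0.45 to 0.043 for Cd14, -1.37 to 0.60 for Plac8, -0.23 to 0.011 for Emb and -1.41 to 0.34 for Thbs1, and in lung CD103+ cells -0.54 to 0.47 for Vcan and -0.0092 to 2.62 for Cd14. The Thbs1 mean effect ranged from -0.42 to 0.022, and its lung CD103+ minus lung CD11b+ genotype difference from -0.56 to 1.19. Lung CD103+ minus CD11b+ in BRAF mice ranged from -0.59 to 1.38 for Plac8, -0.79 to 0.0021 for Fn1 and -2.95 to 0.62 for F13a1. Fn1 in WT liver minus lung came to 0.0098 without the narrow arrays and ranged from -1.59 to 0.0098 with arrays left out. Of 555 values of the other named genes, 489 kept their side of the threshold, 63 lost it, 3 gained it and 0 changed sign. The causes were not tested. Counts over all genes tested moved by over 1.5 times in 103 of 238 cases: they ran from 14 to 1658 in BMDC (80 as reported), 1 to 358 in liver (33), 7 to 369 in lung CD11b+ (52), 0 to 96 in lung CD103+ cells (13) and 67 to 324 for the mean effect (152). With 2 arrays in most groups, the number of arrays limits what could be called.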

Other observations

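Markers of nonclassical monocytes, which patrol the vessel wall, had their own pattern. In WT lung 5 of 10 tested passed as lower in CD103+ than in CD11b+ cells, and 2 of the 10 had a positive difference. Among the 5 were the fractalkine receptor Cx3cr1 at -3.25 ± 0.45, Ace at -3.87 ± 0.52, Adgre4 at -4.57 ± 0.64 and Spn at -1.20 ± 0.25 (limma's adjusted p = 0.000602, 0.000482, 0.000712 and 0.0115). In a fit of the 2 WT groups alone Adgre4 did not pass (adjusted p = 0.0625). In BRAF lung 1 of 10 passed, Cx3cr1 at -2.06 ± 0.45 (adjusted p = 0.0353), which did not pass with any 1 of the 4 arrays left out. Eno3, a muscle-type enolase, fell in BRAF lung CD11b+ cells by 1.36 ± 0.23 relative to WT (adjusted p = 0.0215), a call lost without any 1 of the 4 arrays, and was also lower in WT CD103+ than WT CD11b+ cells at -2.31 ± 0.23.

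In BMDC 1 of 6 megakaryocyte and platelet markers passed, the platelet chemokine Ppbp, which rose by 1.79 ± 0.32 (limma's adjusted p = 0.0185). Of 12 neutrophil markers 1 passed, the granule gene Ngp, which fell by 1.59 ± 0.27 (adjusted p = 0.0120). The 12 ran from -1.59 to 1.40 with a median of -0.08, and 4 were positive. Without BRAF BMDC replicate 2, the narrow array, Ppbp differed by 1.92 (adjusted p = 0.0277) and Ngp by -1.67 (adjusted p = 0.0211). Ppbp did not pass without WT replicate 1 or 2 or BRAF replicate 1 or 3, nor Ngp without any 1 WT array or BRAF replicate 3. Averaged over the 4 populations, 1 of 10 alveolar macrophage markers passed, the lysosomal protease Ctsk, which rose by 2.38 ± 0.45 (adjusted p = 0.0192). The 10 had a median of 0.04, 5 were positive, and Ctsk did not pass without BRAF lung CD103+ replicate 1, WT liver replicate 1 or WT lung CD11b+ replicate 3. All 12 macrophage markers had a positive mean difference and 2 passed, Msr1 at 1.39 ± 0.25 (adjusted p = 0.0146) and Fcgr4 at 1.72 ± 0.31 (adjusted p = 0.0147). Msr1 did not pass without WT lung CD11b+ replicate 1, nor Fcgr4 without WT liver replicate 1.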
